A study of Mus musculus with 6 samples.

Results

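Matricellular proteins are secreted into the extracellular matrix. There they bind integrins, CD44, proteoglycans and growth factors and change how cells attach, migrate and signal. This account covers 7 genes, some of that kind and some for matrix and cell-surface partners that myeloid cells make: Spp1, Thbs1, Tgfbi, Fn1, Vcan, Sdc3 and Pdpn. They were taken by symbol from the 20394 genes of the count table, and all 7 were present. Their levels were described in sorted leukocytes of the inflamed knee joint of mice with antigen-induced arthritis (AIA).

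All mice were wild-type C57BL/6 males that were 8 weeks old when obtained. They were immunized with 10 μg methylated bovine serum albumin (mBSA) in complete Freund's adjuvant, and arthritis was triggered on day 21 with 100 μg mBSA injected into the knee. Vehicle (PBS, 2 samples) or 300 μg PEPITEM (4 samples), a pegylated peptide that limits leukocyte trafficking, was given into the peritoneum. CD45+ cells were sorted from digested synovium 3 days after the challenge. Single-cell RNA sequencing with a kit that reads the 3′ ends gave 32953 cells. The cell barcodes end in a library number from 1 to 6, and no source used here ties a number to a sample, so the numbers stand for libraries of unknown treatment and PBS was not compared with PEPITEM. For the same reason the libraries are no replicates of a group, and each value is given as a pooled level, the lowest, median and highest library, and the number of libraries with one direction. The libraries held 2919 to 9345 cells and 47273569 to 123367661 unique molecular identifiers (UMIs, the tags of single RNA molecules). The same barcode occurred in more than 1 library for 138 barcodes, which make up 276 cells.

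Spp1 encodes osteopontin, an acidic glycoprotein bound by CD44 and αv integrins. Thbs1 encodes thrombospondin 1, which is bound by CD36 and CD47 and can activate latent TGF-β, and Tgfbi encodes a TGF-β-induced adhesion protein bound by integrins. Fn1 encodes fibronectin and Vcan the large proteoglycan versican, both structural components of provisional matrix. Sdc3 is a heparan sulfate proteoglycan of the plasma membrane, and Pdpn (podoplanin) is a mucin-type membrane glycoprotein and the ligand of the platelet receptor CLEC-2. In an inflamed joint, monocytes that enter from blood can become macrophages beside the resident macrophages that line and fill the synovium, and fibroblasts make much of the matrix.

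The files name genes by symbol only, and positions were read from GENCODE M21 on GRCm38, the assembly also called mm10. All 7 are protein-coding genes. Spp1 (ENSMUSG00000029304) lies at chr5:104435118-104441050 on the plus strand, Thbs1 (ENSMUSG00000040152) at chr2:118111876-118127133 on the plus strand and Tgfbi (ENSMUSG00000035493) at chr13:56609523-56639562 on the plus strand. Fn1 (ENSMUSG00000026193) lies at chr1:71585520-71653200 on the minus strand and Vcan (ENSMUSG00000021614) at chr13:89655312-89742509 on the minus strand. Sdc3 (ENSMUSG00000025743, plus strand, chr4:130792537-130826319) and Pdpn (ENSMUSG00000028583, minus strand, chr4:143267431-143299564) share chromosome 4.

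The 200 bases before the transcription start are printed for Spp1 and Pdpn, the members with the steepest rise from resident to Arg1-positive macrophages among those with a promoter entry. They come from RefSeq on GRCm38.p6, which matched 5 of the 7 members (Spp1, Tgfbi, Vcan, Sdc3 and Pdpn). The Spp1 window is the first of 2 listed starts, chr5:104434911-104435110 on the plus strand, and the Pdpn window is chr4:143299565-143299764 on the minus strand.
Spp1: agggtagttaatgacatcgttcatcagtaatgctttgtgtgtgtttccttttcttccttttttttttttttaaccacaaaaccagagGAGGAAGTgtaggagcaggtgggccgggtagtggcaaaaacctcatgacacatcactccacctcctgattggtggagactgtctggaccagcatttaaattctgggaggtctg
Pdpn: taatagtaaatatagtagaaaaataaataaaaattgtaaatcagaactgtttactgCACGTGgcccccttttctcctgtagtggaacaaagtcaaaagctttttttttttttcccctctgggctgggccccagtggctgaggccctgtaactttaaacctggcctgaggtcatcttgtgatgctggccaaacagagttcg
Capitals mark matches, on either strand, to 4 motifs that were chosen after the sequences had been seen. The PU.1 letters GAGGAAGT of Spp1 begin 113 bases before the start, and 2.06% of the 32851 RefSeq promoter windows of this length hold them. The E-box letters CACGTG of Pdpn begin 144 bases before the start, and 5.26% of the windows hold them. The letters of an AP-1 motif, TGANTCA, occur in 5.48% of the windows. Those of a TATA box, written TATAAA, occur in 9.96%, and neither is in these windows of Spp1 and Pdpn. None of the 4 motifs is in the windows of Tgfbi, Vcan and Sdc3 or in that of the second Spp1 start. A match of letters shows no binding.

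Cells were put into classes by markers that exclude the 7 genes. A marker counted as detected from 2 UMIs, a macrophage needed 4 of 8 macrophage markers and a classical monocyte 4 of 7 monocyte markers, and a cell with markers of both was a macrophage. The macrophage gate held 3741 cells (median 14717 UMIs per cell) and the classical monocyte gate 2876 cells (median 15510 UMIs). Of the macrophage-gated cells, 1558 also passed the monocyte gate and 771 sat at the minimum of 4 markers. Within macrophages, 1309 cells had 3 or more of the resident markers Lyve1, Cd163, Folr2, Vsig4, Timd4 and F13a1, 487 had Arg1 and 91 had both Cxcl9 and Cxcl10. Each of these groups excludes cells that also passed for another of them, which were 57 cells. No cell counted as resident therefore passed for Arg1-positive, or the reverse. A further 133 had Fxyd2 and Aqp1 and passed for none of these groups, and 1664 had no further marker. Arg1 codes for arginase 1, and Cxcl9 and Cxcl10 are chemokines induced by interferon. Cells that passed another lineage gate as well were left out, among them 1952 with macrophage markers and 4 or more of 6 neutrophil markers. Of the latter, 421 were otherwise resident and 379 Arg1-positive, so the levels below cover only a part of these cells.

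RNA of other cells was measured in the same gates. The 6 neutrophil markers summed to 992 counts per 1000000 UMIs (CPM) in the macrophage gate (library range 318 to 1502), 1120 CPM in the monocyte gate (750 to 1565), 1014 CPM in the resident gate (329 to 1389) and 1085 CPM in the Arg1 gate (69.1 to 2436), against 153860 CPM in neutrophil-gated cells. The 6 fibroblast markers summed to 6.00 CPM in macrophages and 1.16 CPM in monocytes, and the 5 markers of megakaryocytes or platelets to 4.01 and 1.14 CPM. The fibroblast and platelet sums were thus small beside the members' levels in these gates. Levels are given as CPM and compared between classes for the same gene, never between genes. Intervals are exact Poisson 95% intervals for CPM and exact binomial ones for shares, and cover counting error only.

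**Figure D1:**
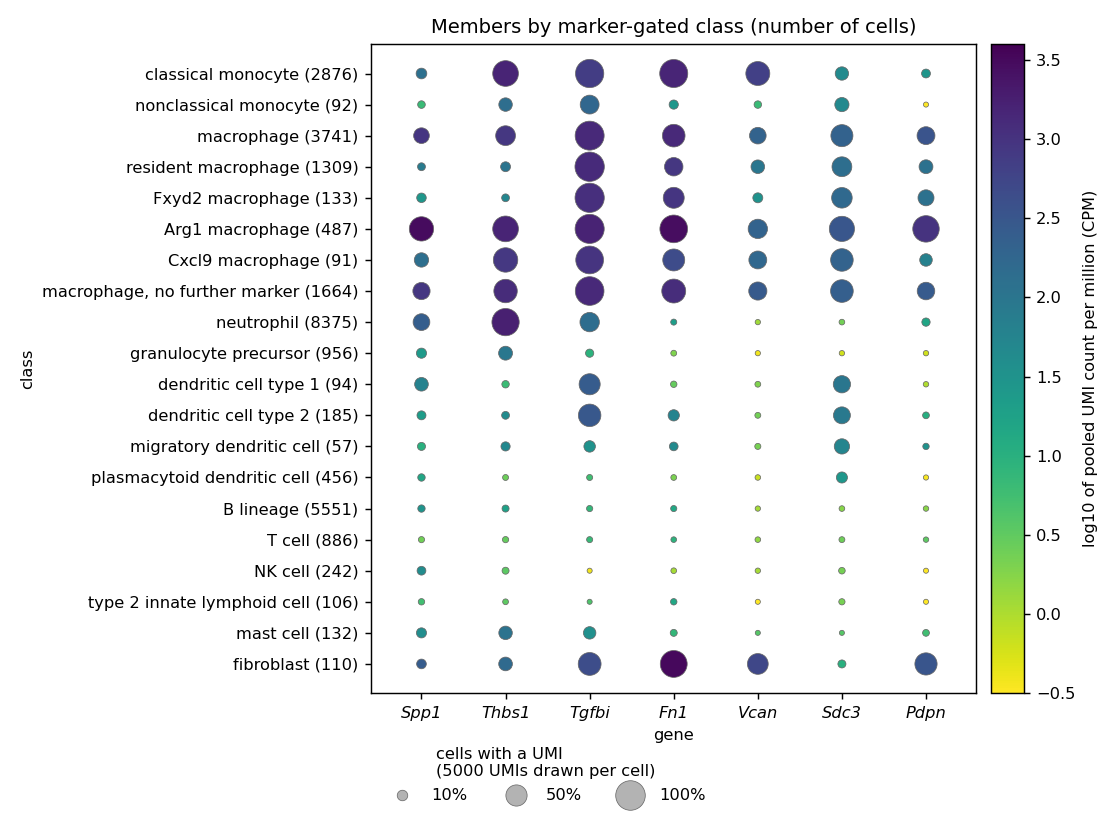
Pooled level (color, log10 CPM) and share of cells with a UMI after 5000 UMIs were drawn from each cell (dot size) of the 7 genes (columns) in marker-gated classes with at least 50 cells (rows, number of cells in brackets). Tgfbi was detected in 96.1% of macrophage-gated and 91.3% of monocyte-gated cells at this depth, Spp1 in 66.7% of Arg1-positive and 4.29% of resident cells, and Thbs1 in 84.7% of neutrophil-gated cells.

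The 7 genes together did not mark one class. Among gated classes with at least 50 cells, Spp1, Tgfbi, Sdc3 and Pdpn had their highest pooled level in Arg1-positive macrophages, Vcan in classical monocytes, Thbs1 in neutrophils and Fn1 in the 110 fibroblast-gated cells. For Spp1 and Sdc3 this rank was less clear with clusters in place of gates. The fibroblast cluster (162 cells) had 1231 CPM Spp1, between the 748 and 1394 CPM of the clusters named Arg1-positive. Sdc3 was highest in a resident cluster (142 cells), at 274 CPM. A name that ties the set to monocytes and macrophages was met by Tgfbi for macrophages and classical monocytes, and in part by the other members. The pooled Tgfbi level in each macrophage gate and in classical monocytes exceeded that of all other classes. The 92 nonclassical monocytes, at 176 CPM, were below fibroblasts (443 CPM) and type 2 and type 1 dendritic cells (310 and 269 CPM). In classical monocytes, Spp1 (127 CPM) was below fibroblasts (265 CPM) and neutrophils (248 CPM), Pdpn (29.2 CPM) below fibroblasts (329 CPM), and Sdc3 (44.6 CPM) below type 1 and type 2 dendritic cells (97.2 and 87.9 CPM). The fibroblast Spp1 level came from 12 positive cells of 110, with 1.37 and 409 CPM in the 2 libraries with enough cells. Macrophage-gated cells were 11.4% of all cells and held 12% of all UMIs, and they carried 46.9% of the Pdpn UMIs, 40.6% of the Sdc3 UMIs, 35.5% of the Tgfbi UMIs, 35.1% of the Spp1 UMIs and 30.9% of the Fn1 UMIs. For Thbs1 the share was 11.2% and for Vcan 18.4%. Monocyte-gated cells, with 9.93% of all UMIs, carried 50.2% of the Vcan UMIs and 27.9% of the Fn1 UMIs. Cells left out for passing more than 1 gate were 18.1% of all cells and held 35.7% of all UMIs. They carried 46.1% of the Sdc3, 42.9% of the Spp1, 42.0% of the Pdpn and 39.5% of the Thbs1 UMIs. Their shares were 38.9% for Tgfbi, 34.7% for Fn1 and 28.3% for Vcan.

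Spp1 had the widest range across macrophages. Its pooled level was 3002 CPM (95% interval 2967 to 3037) in Arg1-positive cells, with 776 CPM in the lowest, 2328 in the median and 4479 in the highest library. Macrophages with no further marker followed with 903 CPM (library range 329 to 1612). The ranges of these neighbours overlapped. Cxcl9-positive cells had 130 CPM (115 to 148 by counting), and resident cells had 82.1 CPM, with 9.29, 32.1 and 135 CPM in the lowest, median and highest library. Resident cells were below Arg1-positive cells in each library, with no overlap. The 133 macrophages with Fxyd2 and Aqp1 had the lowest pooled level of these gates, at 26.9 CPM from 19 positive cells. After thinning to 5000 UMIs per cell, Spp1 was detected in 66.7% of Arg1-positive cells (77.4% before thinning), 32% of cells with no further marker (40.9%), 21.3% of Cxcl9-positive cells (33.0%) and 4.29% of resident cells (7.79%). The resident share lay close to the 3.32% of B lineage cells (4.67% before thinning), a class that should lack the transcript, at median depths of 12153 and 5772 UMIs. The pooled level was higher in resident than in B lineage cells, at 82.1 against 29.6 CPM. The library ranges overlapped (9.29 to 135 and 6.87 to 92.0 CPM). The lymphoid classes differed among themselves. T cells had 2.45 CPM and 1.46% positive cells at the fixed depth. Their highest library, at 5.06 CPM, was below the lowest resident library. NK cells stood above B lineage cells, at 41.6 CPM and 6.06%. The closeness to B lineage cells therefore does not show that resident Spp1 is background. Neutrophil-gated cells held 248 CPM (245 to 252 by counting) and were positive in 30.1% of cells at the fixed depth.

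In classical monocytes Spp1 was 127 CPM, with 41.1, 89.7 and 621 CPM in the lowest, median and highest library. The highest was library 1, far above the next at 152 CPM. Only 10.5% of monocyte-gated cells were positive at the fixed depth (19.9% before thinning). The Spp1 UMIs were held by few cells: the 374 macrophage-gated cells with most Spp1, 10% of the gate, carried 89.4% of its UMIs, and a single cell reached 1196 UMIs while the median cell had 0. Each of these 374 cells had at least 29 Spp1 UMIs. Of them, 175 (46.8%) were Arg1-positive, a sub-gate that made up 13% of macrophages, 184 (49.2%) had no further marker, 8 (2.14%) were resident and 2 were Cxcl9-positive. A further 5 passed for more than 1 of the resident, Arg1 and Cxcl9 sub-gates.

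Thbs1 was shared by monocytes and neutrophils, and low in resident macrophages. It was also low in the 133 macrophages with Fxyd2 and Aqp1, at 52.1 CPM from 8 positive cells. Neutrophil-gated cells had 1766 CPM (1757 to 1775 by counting), with 1367, 2115 and 2742 CPM in the lowest, median and highest library. Classical monocytes had 1583 CPM (1342, 1719 and 2011) and Arg1-positive macrophages 1552 CPM (654, 1140 and 2005). These neighbours in the order overlapped. Resident cells had 104 CPM, with 2.22, 90.3 and 218 CPM, the lowest being a single UMI in the 33 resident cells of library 2. Their highest library was below the lowest of each of the former. At the fixed depth 84.7% of neutrophils (82.6% before thinning), 74.8% of monocytes (80.4%), 75.0% of Arg1-positive cells (82.1%) and 8.52% of resident cells (12.6%) were positive, against 2.82% of B lineage cells (4.09%).

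Tgfbi was the most even member. Arg1-positive macrophages had 1633 CPM (1416, 1516 and 2061 in the lowest, median and highest library), cells with no further marker 1340 CPM (890 to 1755), resident cells 1294 CPM (1222, 1326 and 1394) and Cxcl9-positive cells 962 CPM. Classical monocytes were lower at 749 CPM (657, 678 and 1168), where libraries 1 and 3 stood above the others with 1168 and 1078 CPM. It was positive in 98.8% of resident and 91.3% of monocyte-gated cells at the fixed depth, in 56.7% of type 2 dendritic cells (310 CPM), in 41.3% of neutrophils (140 CPM) and in 1.51% of B lineage cells. The top 10% of macrophage-gated cells held 31.1% of the Tgfbi UMIs, the lowest such share among the members.

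Fn1 was highest in fibroblast-gated cells at 3215 CPM (3131 to 3302 by counting), where only 2 libraries had 20 or more such cells, with 1807 and 5861 CPM. Arg1-positive macrophages followed with 2895 CPM (1150, 2566 and 4881 in the lowest, median and highest library) and classical monocytes with 1483 CPM (1094, 1417 and 2024). These ranges overlapped. Resident cells had 903 CPM (687, 930 and 2427), and their highest value came from library 2, with 33 cells, while the next was 1035 CPM. Fn1 split the resident cells: 37.2% were positive at the fixed depth (40.9% before thinning), against 87.4% of Arg1-positive cells (93.0%) and 89.8% of monocytes (94.3%). The positive resident cells carried 28.7 UMIs on average. Neutrophils (20.8 CPM, 1.29% positive) and B lineage cells (13.7 CPM, 1.41%) were low in it.

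Vcan had its highest pooled level in classical monocytes. Classical monocytes had 668 CPM (661 to 675 by counting), with 373, 599 and 994 CPM in the lowest, median and highest library, and 64.7% of cells were positive at the fixed depth (77.2% before thinning). Macrophages with no further marker had 285 CPM (149, 250.5 and 447), Arg1-positive cells 208 CPM (160.0, 210.0 and 236) and resident cells 97.0 CPM (64.4, 102 and 171). The ranges of monocytes and Arg1-positive cells did not overlap. Fibroblast-gated cells, at 530 CPM, were the nearest class to monocytes, and their 2 libraries (556 and 662 CPM) lay inside the monocyte range. Nonclassical monocytes, the 92 cells with Ace, Cd300e and related markers, had 6.52 CPM (2.12 to 15.2) from 4 positive cells, and neutrophils 1.20 CPM.

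Sdc3 was low in monocytes and present in most macrophages. Arg1-positive cells had 313 CPM (157, 272 and 436 in the lowest, median and highest library), cells with no further marker 235 CPM (175 to 329), Cxcl9-positive cells 205 CPM and resident cells 137 CPM (120 to 159), while monocytes had 44.6 CPM (27.7, 36.6 and 110). The ranges of Arg1-positive and resident cells met at their edges, through library 2, where the values were 157 and 135 CPM. Type 2 dendritic cells had 87.9 CPM, while neutrophils had 2.37 CPM and fibroblast-gated cells 9.996 CPM. At the fixed depth, 54.3% of macrophages (77.4% before thinning), 18.1% of monocytes (38.8%) and 0.731% of B lineage cells (0.973%) were positive.

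By the library ranges of the gates, Pdpn separated Arg1-positive macrophages from the others most clearly. These cells had 1004 CPM (984 to 1025 by counting), with 618, 1001 and 1060 CPM in the lowest, median and highest library. Fibroblasts, which are known for Pdpn, had 329 CPM (2 libraries, 293 and 457), cells with no further marker 279 CPM (162 to 372), resident cells 119 CPM (87.6, 108 and 153), Cxcl9-positive cells 66.0 CPM (55.0 to 78.5 by counting) and monocytes 29.2 CPM (9.57, 19.2 and 112). No library with at least 20 cells of another class reached the lowest Arg1-positive library. This rested on the gate. Arg1-positive cells left out for neutrophil markers had 520 CPM (320 to 704 over 5 libraries). The clusters named Arg1-positive had 236 and 418 CPM, beside 279 CPM in the fibroblast cluster. In monocytes libraries 1 and 3 again stood apart, with 112 and 101 CPM against 9.57 to 19.97 CPM in the rest. At the fixed depth Pdpn was positive in 79.6% of Arg1-positive cells (89.5% before thinning), 19.6% of resident cells (28.4%), 6.22% of monocytes (12.8%) and 0.444% of B lineage cells (0.522%).

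**Figure D2:**
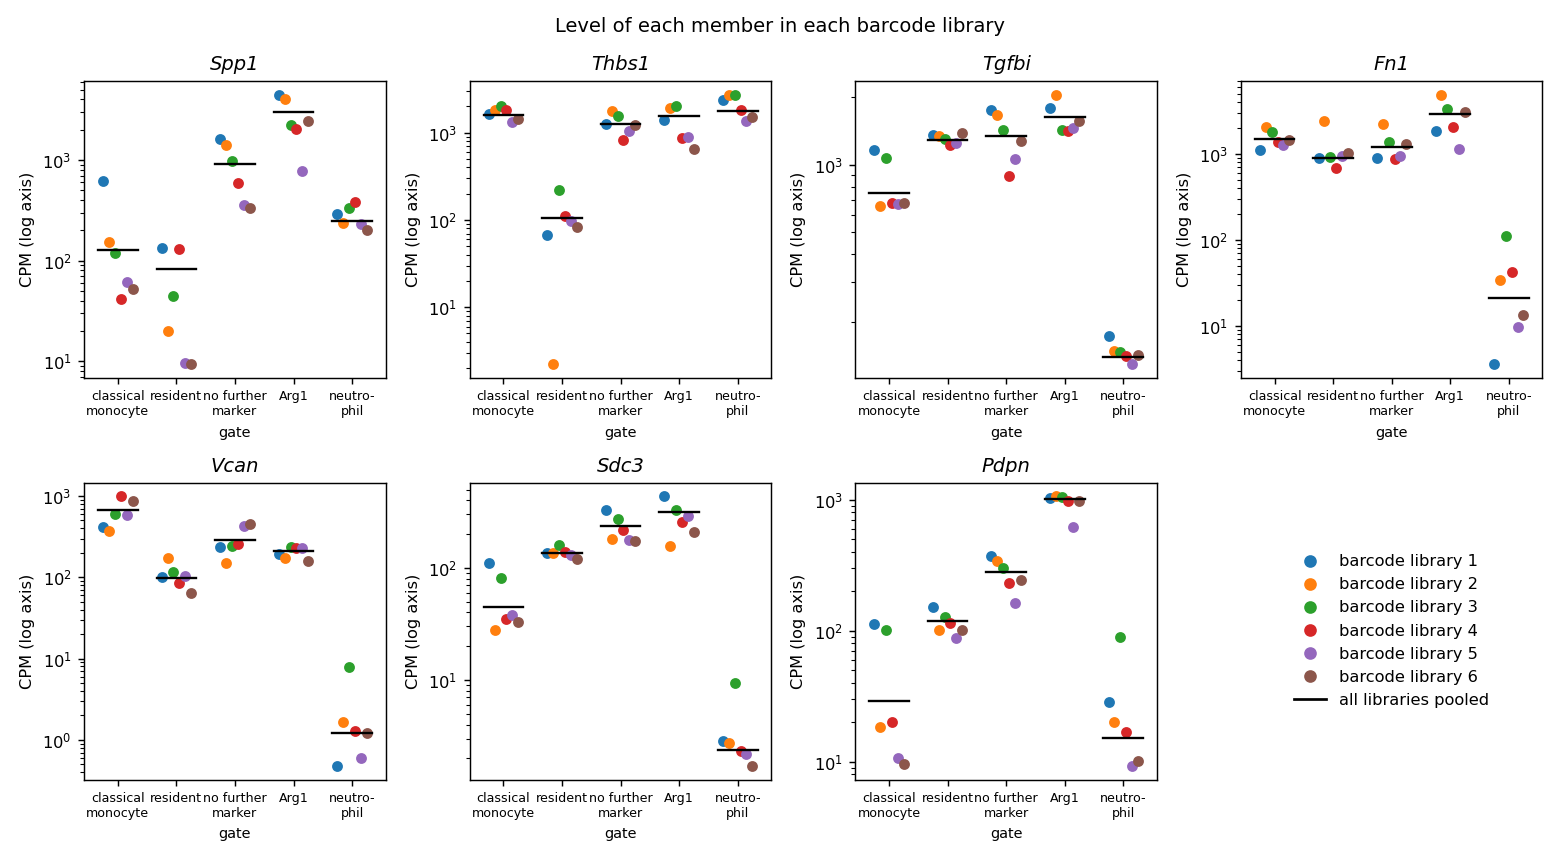
Level (CPM, log axis) of each gene in 5 gates, with 1 point for each barcode library, colored by library, and a bar for the pooled value. Spp1 and Thbs1 were lower in resident than in Arg1-positive cells in each library, and the Pdpn values of the Arg1 gate, from 618 to 1060, lay above all other points of that gene.

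The first comparison asked how the transcripts differ between macrophages and the classical monocytes from which recruited macrophages can arise. Spp1, Tgfbi, Sdc3 and Pdpn were higher in the macrophage gate and Thbs1 and Vcan lower, each in 6 of 6 libraries, while Fn1 was higher in 2 and lower in 4. Of the 6559 genes with at least 20 CPM in either gate, 34.9% were higher and 28.8% lower in each of the 6 libraries, so a held direction was common among all genes. The sizes were less so: with respect to the log2 ratio of CPM + 1, 120 genes lay above Pdpn, 164 above Spp1 and 226 above Sdc3, and 165 below Vcan.

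Pdpn stood 11.7-fold higher in macrophages (342 against 29.2 CPM, log2 ratio 3.51), with library ratios from 3.55 to 28.8. Spp1 stood 7.39-fold higher (937 against 127 CPM, log2 ratio 2.88), with ratios from 2.47 to 13. For Spp1 the ranges of the 2 gates overlapped, because library 1 had 621 CPM in monocytes and library 5 had 208 CPM in macrophages. Sdc3 was 4.84-fold higher (216 against 44.6 CPM, log2 ratio 2.25) and Tgfbi 1.81-fold higher (1353 against 749 CPM, log2 ratio 0.85). Vcan was 3.30-fold lower (202 against 668 CPM, log2 ratio -1.72), and Thbs1 1.75-fold lower (904 against 1583 CPM, log2 ratio -0.81). The sorted cells also held 956 granulocyte precursors, gated on Elane, Mpo and related markers. Libraries 1 and 3, high in monocyte Pdpn, had the fewest precursors (35 and 23 cells). Libraries 5 and 6 had the most (352 and 373 cells) and gave 864 and 755 of the monocytes. These are numbers of cells and not shares of a library, and the libraries held 2919 to 9345 cells in all. Whether the monocyte gate mixes monocytes of different origin was not tested.

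The library ranges of the gates did not overlap for Sdc3 and Pdpn (higher) and for Vcan (lower), a property of 22.5% of all genes upward and 16.5% downward. Fn1, at 1359 and 1483 CPM (log2 ratio -0.13), differed by less than its spread between libraries, and its ratio ran from 0.638 to 1.45. The Thbs1 direction rested on how the classes were made. With the cells that also pass the neutrophil gate kept, it was lower in 5 libraries and higher in 1 (log2 ratio -0.36), and with clusters in place of gates the pooled log2 ratio was 0.03. Thbs1 in macrophages with neutrophil markers was 1666 CPM. Whether their neutrophil transcripts are engulfed material, free RNA or a second cell was not tested.

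**Figure D3:**
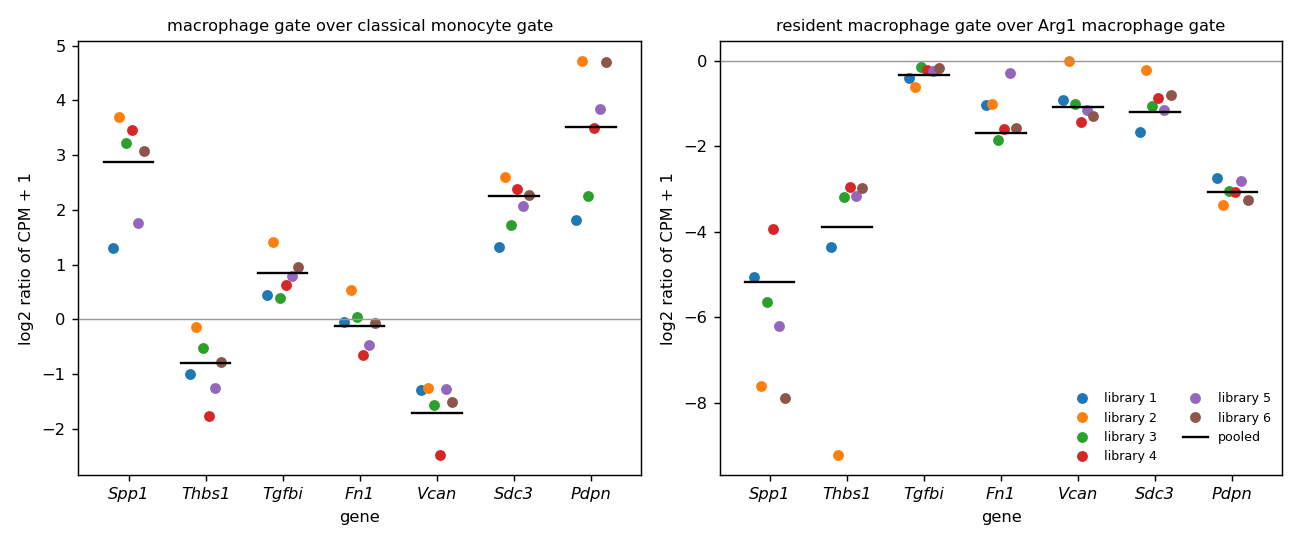
Log2 ratio of CPM + 1 per barcode library (points) and pooled over libraries (bars), for the macrophage against the classical monocyte gate (left) and for the resident against the Arg1-positive macrophage gate (right). A value above 0 means higher in the first-named gate. Pooled values ran from -1.72 (Vcan) to 3.51 (Pdpn) on the left and from -5.18 (Spp1) to -0.34 (Tgfbi) on the right.

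The second comparison set resident against Arg1-positive macrophages of the same joints. All 7 genes were lower in resident cells in 6 of 6 libraries. Among the 6600 genes with at least 20 CPM in either gate, 18.7% were lower and 27.1% higher in each library. The pooled log2 ratio was -5.18 for Spp1 (82.1 against 3002 CPM), -3.88 for Thbs1 (104 against 1552 CPM), -3.06 for Pdpn (119 against 1004 CPM), -1.68 for Fn1 (903 against 2895 CPM), -1.19 for Sdc3 (137 against 313 CPM), -1.09 for Vcan (97.0 against 208 CPM) and -0.34 for Tgfbi (1294 against 1633 CPM). The median over all genes was 0.03. Only 2 of the 6600 genes had a lower ratio than Spp1, 13 a lower one than Thbs1 and 50 a lower one than Pdpn. The library ranges did not overlap for Spp1, Thbs1, Tgfbi and Pdpn, a property of 10.0% of all genes downward.

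Some of these differences were slight within single libraries. Vcan in library 2 was 171 CPM in resident and 172 CPM in Arg1-positive cells, and the Tgfbi ratio ran from 0.653 to 0.910 over libraries. The sizes depended on how the classes were made, and Tgfbi, Sdc3 and Fn1 lost their call or turned under other settings. With clusters in place of gates the log2 ratio shrank to -2.58 for Spp1, -1.70 for Thbs1, -1.28 for Pdpn and -0.70 for Fn1, each lower in 6 of 6 libraries. Tgfbi came out level with clusters in place of gates (log2 ratio 0.00, 3 libraries each way), and held in 4 of 5 libraries with 1 more marker per gate (log2 ratio -0.22). Sdc3 was lower in 5 of 6 libraries with clusters (log2 ratio -0.51). When clusters were instead named by the number of leading markers, Tgfbi turned to 0.36, higher in 6 of 6 libraries, Sdc3 was -0.19, lower in 4, and Fn1 was -0.27 when pooled but higher in 5 of 6 libraries. In the single cluster that this naming calls Arg1-positive, 84.8% of the cells also passed the neutrophil gate. That cluster (2297 cells, Tgfbi 834 CPM) was also Arg1-positive under the first naming, together with the cluster led by Arg1 (2463 cells). In the latter, 7.80% of cells passed the neutrophil gate and Tgfbi was 1383 CPM. The larger resident cluster (2295 cells, 24.7% passing the neutrophil gate) had 1066 CPM Tgfbi, and the smaller (142 cells) had 1236 CPM. The part of neutrophil-marker cells in the cluster ratios was not tested. In the gates, neutrophil marker RNA was 1014 CPM in resident and 1085 CPM in Arg1-positive cells, with overlapping library ranges.

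Cxcl9-positive macrophages were few, with 91 cells of which 41 came from library 4, the single library with at least 20. The values are therefore pooled ones without a check across libraries. Against Arg1-positive cells, 3 members were at least 2-fold lower: Spp1 (130 against 3002 CPM, log2 ratio -4.51), Pdpn (66.0 against 1004 CPM, log2 ratio -3.91) and Fn1 (460 against 2895 CPM, log2 ratio -2.65). Of the 6100 genes compared, 6.07% were at least 2-fold lower and 3.54% at least 2-fold higher. There, 6 genes had a lower ratio than Spp1 and 7 than Pdpn. Thbs1 (-0.87), Tgfbi (-0.76), Sdc3 (-0.61) and Vcan (-0.29) differed less. Within library 4 alone Spp1 was 131 against 2020 CPM, Pdpn 32.1 against 974 CPM and Fn1 482 against 2068 CPM, while Thbs1 was level at 871 and 869 CPM. Clusters did not separate the Cxcl9-positive cells, and the 3 calls did not hold with them. With clusters named by their number of leading markers, the cluster led by Arg1 takes the name Cxcl9-positive, and 6 of the 7 ratios turned positive (Spp1 0.90, Fn1 0.88 and Pdpn 0.82 among them) while no member was 2-fold apart.

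The libraries differed in the make-up of the macrophage gate and in the level of Spp1 there. Arg1-positive cells were 15.5, 24.1, 25.3, 5.25, 5.71 and 7.71% of the gate in libraries 1 to 6. Spp1 in the whole macrophage gate was 1537, 1976, 1110, 460.0, 208 and 444 CPM in the same libraries, and Pdpn was 398, 511, 485, 236, 167 and 275 CPM. The orders of the libraries were alike without being the same. Within the Arg1 gate, where this share plays no part, Spp1 was 4479, 4076, 2238, 2020, 776 and 2418 CPM in libraries 1 to 6, and Pdpn was 1020, 1060, 1049, 974, 618 and 983 CPM. Library 5 was the lowest for both genes in both gates. Resident cells were 10.3% of the macrophage gate in library 2 and 22.4 to 50.5% in the others.

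Detection of the members in the same cells was counted after 5000 UMIs were drawn from each of 3529 macrophage-gated cells, so that deeper cells had no advantage. Spp1-positive cells had Pdpn in 62.1% and Spp1-negative cells in 24.6%. Thbs1 was found in 67.9% and 35.1% and Fn1 in 79.0% and 49.6% of the same cells. These differences had 1 direction in 6 of 6 libraries. The macrophage gate mixes resident and Arg1-positive cells, which differ in these genes. Pairs were not counted within the sub-gates or for genes outside the 7. Vcan went with Fn1: 87.5% of Vcan-positive cells had Fn1 against 44.5% of Vcan-negative cells, again in 6 of 6 libraries. Vcan differed little by Spp1 (35.1% against 27.6%, higher in 4 libraries and lower in 2), and Sdc3 was about as frequent with Fn1 as without (55.3% against 55.1%). Only 87 cells (2.47%) had all 7 transcripts, and 11 cells (0.312%) had none.

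**Figure D4:**
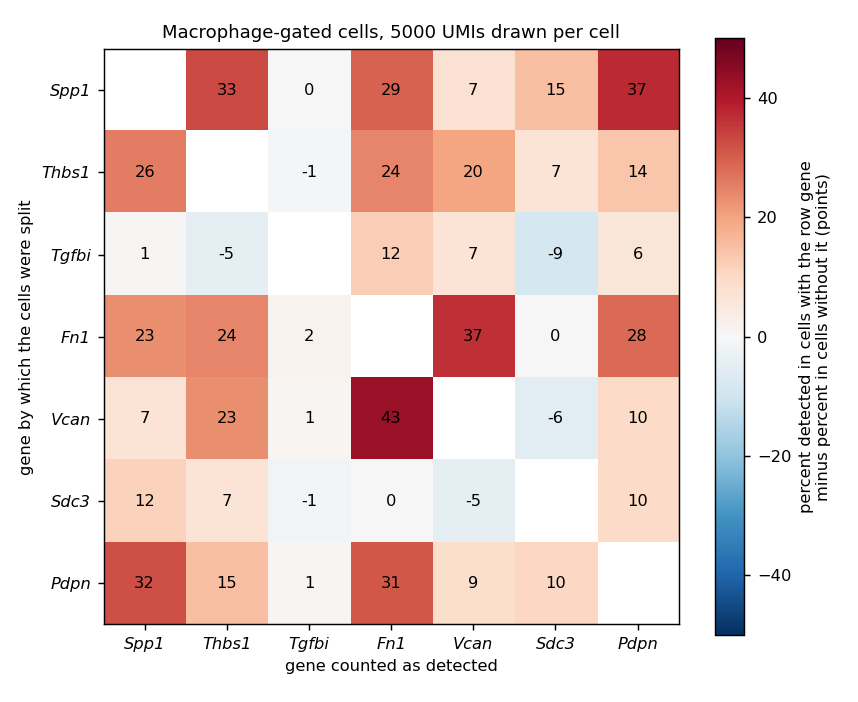
Percent of macrophage-gated cells with the column gene among cells with the row gene, minus the percent among cells without it, in points, after 5000 UMIs were drawn from each of 3529 cells. The strongest pairs were Vcan with Fn1 (87.5% against 44.5%) and Spp1 with Pdpn (62.1% against 24.6%), while the Tgfbi column, a gene detected nearly throughout, stayed near 0.

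Vcan-positive macrophages also had Thbs1 more often (60.1% against 36.8%, in 6 of 6 libraries). The same pairs were counted in classical monocytes, and the difference between the gates was not tested. Among 2825 monocytes at the fixed depth, Thbs1 was found in 85.2% of Vcan-positive and 56.9% of Vcan-negative cells, and Fn1 in 95.1% and 80.1%, both in 6 of 6 libraries. Spp1 went with Pdpn in the few cells that had either, with Pdpn in 18.1% of Spp1-positive and 5.12% of Spp1-negative cells, in 5 of 6 libraries. Thbs1 did not differ in 1 direction by Spp1 (72.9% against 75.4%, higher in 3 libraries). Pooled levels also differed by the number of cycling markers in a monocyte. The 619 monocytes with 2 or more cycling markers had 417 CPM Vcan (library range 228 to 613) against 771 CPM (424 to 1112) in the other 2257, 1231 against 1727 CPM Thbs1, 510 against 847 CPM Tgfbi, 18.1 against 55.5 CPM Sdc3 and 7.19 against 38.2 CPM Pdpn. The library ranges lay apart for Tgfbi and Sdc3. They overlapped for Vcan, Pdpn and Thbs1 (1032 to 2104 against 1492 to 1991 CPM for Thbs1). Directions within single libraries were not counted. Fn1 was about level, with 1519 against 1468 CPM. Cycling cells were deeper, with a median of 22179 against 14704 UMIs.

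The macrophage-gated cells left out for neutrophil markers were deeper, with a median of 25414 UMIs per cell, and their members read differently. Resident cells with 4 or more neutrophil markers (421 cells) had 1137 CPM Thbs1 (753 to 1612 over 5 libraries) against 104 CPM in those without, and 319 against 82.1 CPM Spp1. Both genes were also found in neutrophil-gated cells, at 1766 and 248 CPM. In the same resident cells Tgfbi was 832 against 1294 CPM, Fn1 373 against 903 CPM, Vcan 42.3 against 97.0 CPM and Sdc3 118.5 against 137 CPM, while Pdpn was 128 against 119 CPM. The 379 Arg1-positive cells left out in this way, beside 487 kept, were lower in 6 members. They had 1499 against 3002 CPM Spp1, 520 against 1004 CPM Pdpn and 1519 against 2895 CPM Fn1. Tgfbi was 1074 against 1633 CPM, Vcan 124 against 208 CPM and Sdc3 217 against 313 CPM. Thbs1 was higher, at 2086 against 1552 CPM. The part of neutrophil RNA in these differences was not tested. Cells with macrophage or monocyte markers and neutrophil markers were 7.87% of all cells and held between 16.2% (Vcan) and 35.0% (Sdc3) of the UMIs of a member, against 14.6% of all UMIs. With these cells kept, the resident level stayed below the Arg1 level for all 7 genes in 6 of 6 libraries, and the Spp1 and Thbs1 log2 ratios shrank to -3.65 and -1.96.

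The genes whose levels followed each member most closely over 19 classes, among 10344 genes with at least 20 CPM in any, are given as a description, with Pearson's r of log2(CPM + 1). Classes of the same cells share libraries and depth. Spp1 was followed by Bnip3 (0.80), Tlr4 (0.74) and Pdpn (0.74), and Thbs1 by the C-type lectin receptors Clec4e (0.93) and Clec4d (0.91) and by Ccr1 (0.90), each highest in neutrophils. Tgfbi was followed by Cdc42ep4 (0.94), Adam15 (0.93) and Ifi204 (0.93), and Sdc3 by Adap2 (0.96), P2ry6 (0.96) and Tmem106a (0.95). Fn1 had Vcan (0.92), the lipase Lpl (0.92) and Pdpn (0.91), Vcan had Fn1 (0.92), the complement gene Cfb (0.90) and Lpl (0.89), and Pdpn had Fn1 (0.91) and the caveolins Cav2 (0.88) and Cav1 (0.87). Among the members themselves r ran from 0.41 (Thbs1 and Sdc3) to 0.92 (Fn1 and Vcan).

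Receptors and partners of the members were mostly higher in macrophages. Of 18 such genes, 14 reached 20 CPM in either gate, and 11 were higher and 1 lower than in monocytes in 6 of 6 libraries, beside 34.9% and 28.8% of all genes. Their median log2 ratio was 1.12, against 0.03 over all genes. This list and the 2 below were chosen with earlier results of these data known, so the excess over all genes is a description only. The integrin chain gene Itga9 (80.8 against 1.41 CPM), the thrombospondin receptor gene Cd36 (499 against 21.1 CPM) and Sdc4, a relative of Sdc3 (260 against 37.6 CPM), had the highest ratios. Itga4 (129 against 202 CPM) was the one lower in 6 of 6, and Cd47 (415 against 461 CPM) and Itgb2 (301 against 277 CPM) held no direction. Cd44, the osteopontin receptor gene, was 2087 CPM in macrophages and 1576 CPM in monocytes, and within macrophages it was 1492 CPM in resident against 2666 CPM in Arg1-positive cells, lower in 6 of 6 libraries. In that comparison 2 of 15 receptor genes were higher and 3 lower in each library, beside 27.1% and 18.7% of all genes, so the share of lower ones was near that of all genes. Their median log2 ratio was -0.18.

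Most other matricellular and matrix genes that were found by symbol were rare in these cells. Of 19 symbols 17 were in the table and 3 reached 20 CPM in macrophages or monocytes. Ccn1 and Ccn2 were absent under these symbols, and other names for them were not looked up. Sparc, the matricellular protein osteonectin, was 96.2 against 0.787 CPM and Ecm1 was 403 against 24.1 CPM, both higher in macrophages in 6 of 6 libraries, and Srgn, the proteoglycan of secretory granules, was lower (1520 against 1738 CPM). Unlike the members, Sparc was higher in resident than in Arg1-positive cells, at 304 against 1.07 CPM. Thbs2, Thbs3, Thbs4, Tnc and Postn stayed below 20 CPM in both gates. Of 10 matrix enzyme and TGF-β genes, 7 were compared, and 5 were higher and none lower in macrophages in 6 of 6 libraries, beside 34.9% and 28.8% of all genes. The TGF-β receptor gene Tgfbr2 (146 against 41.6 CPM), Tgfbr1 (167 against 59.0 CPM) and Hbegf (25.3 against 2.84 CPM) had the highest ratios, and Smad7 (60.2 against 47.8 CPM), Tgfb1 (367 against 271 CPM, higher in 5 libraries) and F13a1, itself a gate marker (1032 against 1125 CPM), the lowest. In the resident against Arg1 comparison Tgfbr2 was higher (307 against 61.3 CPM) and Tgm2, the cross-linking enzyme transglutaminase 2, lower (101 against 415 CPM), each in 6 of 6 libraries.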

How the data were processed

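The authors prepared Chromium 3′ libraries of CD45+ synovial cells, aligned reads to mm10 with Cell Ranger (version 7 in the submitters' processing notes), removed ambient RNA with SoupX and doublets with DoubletFinder, filtered cells in Seurat, and deposited 1 table of whole UMI counts that was not scaled for depth. No doublet caller was run here. Members and lists were chosen with earlier results of these data known, and gate minimums after marker distributions, not member levels, had been seen. Minimums were 4 markers for macrophages, classical monocytes and neutrophils and 3 for the other lineages.

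For levels, all UMIs of a gene in a class were summed and divided by the UMIs of the class, times 1000000 (CPM). Each library with at least 20 cells in both gates gave a ratio. A direction held when it was the same in each of them. No test was run, since no library has a known treatment. Shares of cells were also computed for 5000 UMIs drawn per cell, leaving out shallower cells. Genes named outside the 7 are the 3 most alike per member and up to 3 with the highest and lowest macrophage to monocyte ratio of each list, with Cd44, Sparc and Tgm2 in the second comparison named after their values were seen. Alternatives were other gates, clusters (scanpy 1.11.5, leidenalg 0.10.2, members left out), depth limits, library medians and each library left out. Procedures were tested on simulated data. The simulated libraries of a gate differed in depth and counting error only. The simulation therefore cannot show how the direction rule behaves when levels differ between libraries, as they did here. Python 3.11.15, numpy 2.4.6, scipy 1.17.1 and pandas 2.3.3 were used.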

Additional observations from a re-analysis of the deposited data

How the results depend on the processing

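Of 287 log2 ratios of the 7 genes recomputed under other settings, 270 kept their direction and their call, 5 kept the direction without the call and 12 turned. Most settings kept the same gates: each library left out, library medians and filters of cells. Only clusters, 1 more marker per gate and keeping neutrophil-marker cells remade the classes, so the 270 are mostly near repeats of the main values. For the macrophage against the monocyte gate, the Thbs1 ratio was 0.034 with clusters in place of gates under either way of naming them, and -0.36 with cells that also pass the neutrophil gate kept. The Fn1 ratio, which had no call, ran from -0.24 to 0.0074 when each library was left out in turn, with the highest value without library 4. The number of members with a held direction was 6 with gates and 5 with clusters, and for the resident against the Arg1 gate 7 and 5. In that comparison Tgfbi was 0.0030 and Sdc3 -0.51 with clusters, and Tgfbi was -0.22 with 1 more marker per gate. Unlike the gates, the clusters kept cells that also pass the neutrophil gate. When clusters took their further name from the panel with most leading markers, Tgfbi was 0.36, Fn1 -0.27 and Sdc3 -0.19. Under that naming, which calls the cluster led by Arg1 Cxcl9-positive and was added after the data had been seen, the Cxcl9 against Arg1 ratios turned to 0.90 (Spp1), 0.73 (Tgfbi), 0.88 (Fn1), 0.67 (Vcan), 0.67 (Sdc3) and 0.82 (Pdpn), and 0 members were 2-fold apart. The library median gave 0.0027 for Thbs1 there, from 1 library. With clusters named by their best-ranked marker no cluster was Cxcl9-positive, so that ratio has no value. Of 392 levels recomputed, 139 stayed within the counting interval, which is narrow at this depth. Shares of cells fell with 2000 in place of 5000 UMIs drawn. The settings that kept neutrophil-marker cells or left out shared barcodes were also added after the data had been seen. No paired analysis was possible because the cells carry no replicate number of the samples and no comparison between treatments was run. Beyond the depth, the limits are the unknown treatment of the libraries, the few Cxcl9-positive cells, and neutrophil RNA in macrophage-gated cells. A further limit is the uneven number of monocytes and granulocyte precursors over the libraries, which also differed in their total number of cells.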
